A study of Mus musculus with 2 samples.

Results

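Hedgehog signalling was examined in embryonic mouse lung through 10 genes: the ligand Shh, the receptor Ptch1, the ligand-binding inhibitor Hhip, the co-receptor Boc, the signal transducer Smo, the transcription factors Gli1, Gli2 and Gli3, and the mesenchymal forkhead factors Foxf1 and Foxf2. They were chosen as a pathway list, by gene symbol, from 19938 genes that the platform annotation named by a single symbol, and each was read from its probe set with the highest mean of both arrays. All 10 were on the array. One pool of lungs was labelled Etv4;5 knockout and the other wild type, both at E13.5, while the airways still branch. Etv4 and Etv5 are ETS transcription factors of the distal lung epithelium that act downstream of fibroblast growth factor signals, and the study asked what their inactivation does to the developing lung. One label shortens the knockout to CKO, and neither a Cre driver, the deleted part of either gene nor the strain was given in the sources used here. RNA of 3 samples was combined per genotype and read on 1 Affymetrix array each, so there was no replicate, no test across samples was possible, and no error can be given for any difference. Every value below compares these 2 pools only.

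In this pathway Shh is released by the lung epithelium and received by the mesenchyme around it. Ptch1 holds Smo inactive until the ligand binds, after which Smo lets the Gli factors switch on target genes. Ptch1, Hhip and Gli1 are themselves such targets, and Ptch1 and Hhip in turn bind and limit the ligand. Foxf1 and Foxf2 are transcription factors of lung mesenchyme that depend on Hedgehog input, and Foxf1 is needed for lung and vessel formation in the mouse.

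The deposited values were read as log2 expression values from their range, since the scale was not stated. Their medians over 35557 probe sets were 7.58 on the knockout array and 7.60 on the wild type array. Genes were called measured if the higher of their readings reached the median of its array, which kept 11045 genes, all 10 Hedgehog genes among them. Of the targeted genes, Etv4 was read at 6.96 in the knockout pool and 7.59 in the wild type pool, below the limit for measured genes, and Etv5 at 11.28 in the knockout pool and 11.51 in the wild type pool. Etv5 was thus lower by 1.17-fold only, and these readings do not show how complete the inactivation was. Xist, the RNA that silences an X chromosome in female cells, stood at 5.74 in the knockout pool and 12.34 in the wild type pool, so the sex makeup of the pools differed as well. Its part in the Hedgehog values was not tested.

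All differences are log2 values, the knockout reading less the wild type one. Of the 10 Hedgehog genes, 9 were lower in the knockout pool and 1 was higher, where 47% of all measured genes were lower and 25.7% higher. Exactly equal values on both arrays, found for 27.3% of measured genes, were found for 0 of the 10. How such ties arose is not given in the sources used here. Below, equal therefore means identical deposited values, not a measured lack of difference. The shares of all genes that were higher or lower rest on these ties. After equal-median scaling the median of all measured genes was 0.017. A limit of 0.32 was set, at which the lower pool has 80% of the level of the other. At least this far, 4 of the 10 were lower (Shh, Ptch1, Hhip and Foxf1), against 0.797% of measured genes (88 of 11045), and 0 were higher, against 0.815%. By at least 1.1-fold 6 were lower, with Foxf2 and Gli1 added, against 7.5%, and by at least 1.5-fold 0 were lower, against 0.163%. The differences of the 10 ran between -0.52 and 0.13, with a median of -0.18, while all measured genes had a median of 0. These shares describe the list only, since its genes were picked with earlier results of these data known.

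**Figure D1:**
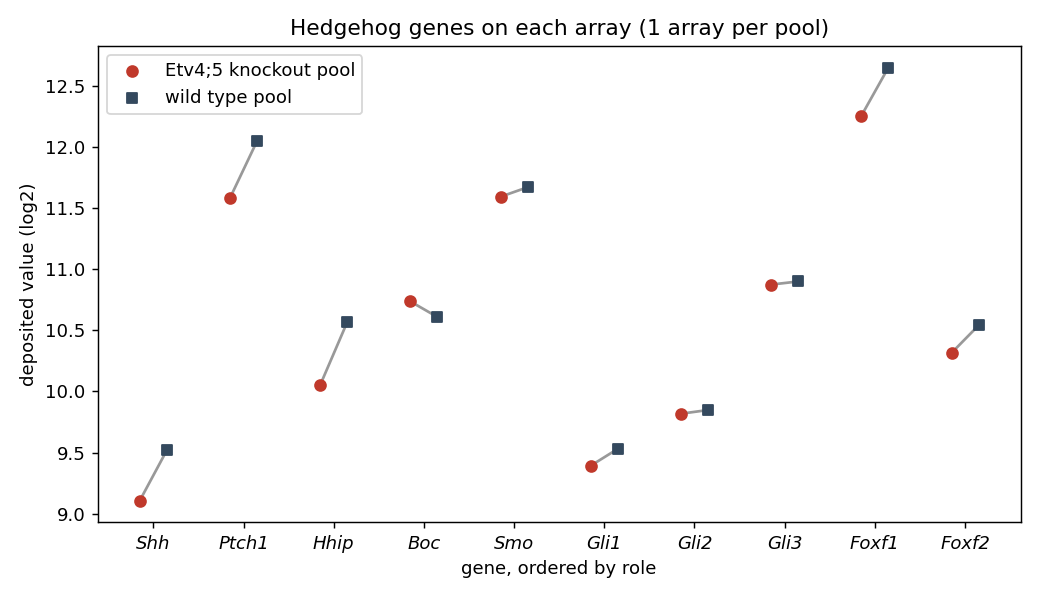
Deposited log2 values of the 10 Hedgehog genes (vertical axis), ordered by role along the horizontal axis, with the Etv4;5 knockout pool as a circle and the wild type pool as a square joined by a line. Shh, Ptch1, Hhip and Foxf1 show the steepest lines, Gli2 and Gli3 are nearly level, and Boc is the one gene whose knockout value (10.74) lies above its wild type value (10.61).

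Promoter windows are printed for Ptch1, Hhip and Foxf2, which were lower by at least 1.1-fold, and for Gli3 as a pathway gene that barely differed. They show whether short letters of a Gli or an ETS site are found near the start of transcription. RefSeq windows of 250 bases before to 50 after the start, on GRCm38.p6, were held for 6 of the 10 genes (Ptch1, Hhip, Smo, Gli2, Gli3 and Foxf2). They are printed 5′ to 3′ on the strand of the gene, with capitals for the 6-letter core CCACCC of a Gli site or the 5-letter core GGAAG of an ETS site on either strand.
Ptch1 promoter, chr13:63565686-63565985, minus strand: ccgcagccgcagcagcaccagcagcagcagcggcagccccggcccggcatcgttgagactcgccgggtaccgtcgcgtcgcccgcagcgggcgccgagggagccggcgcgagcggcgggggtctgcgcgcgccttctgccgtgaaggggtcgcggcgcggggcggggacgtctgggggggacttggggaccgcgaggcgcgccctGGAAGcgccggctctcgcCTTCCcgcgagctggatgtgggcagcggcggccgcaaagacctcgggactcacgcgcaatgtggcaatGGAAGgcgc
Hhip promoter, chr8:80057959-80058258, minus strand: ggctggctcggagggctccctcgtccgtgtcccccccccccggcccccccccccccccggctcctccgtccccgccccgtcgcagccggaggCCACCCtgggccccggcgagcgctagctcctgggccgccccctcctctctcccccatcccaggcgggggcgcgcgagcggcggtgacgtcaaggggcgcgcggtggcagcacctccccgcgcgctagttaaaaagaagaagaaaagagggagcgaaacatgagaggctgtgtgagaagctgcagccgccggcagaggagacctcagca
Foxf2 promoter, chr13:31625566-31625865, plus strand: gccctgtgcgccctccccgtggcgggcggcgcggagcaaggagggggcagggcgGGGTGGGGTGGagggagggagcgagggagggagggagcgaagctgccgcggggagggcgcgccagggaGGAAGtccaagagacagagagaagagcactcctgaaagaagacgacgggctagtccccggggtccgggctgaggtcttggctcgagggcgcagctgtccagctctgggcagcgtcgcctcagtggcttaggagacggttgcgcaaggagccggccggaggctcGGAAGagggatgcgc
Gli3 promoter, chr13:15463473-15463772, plus strand: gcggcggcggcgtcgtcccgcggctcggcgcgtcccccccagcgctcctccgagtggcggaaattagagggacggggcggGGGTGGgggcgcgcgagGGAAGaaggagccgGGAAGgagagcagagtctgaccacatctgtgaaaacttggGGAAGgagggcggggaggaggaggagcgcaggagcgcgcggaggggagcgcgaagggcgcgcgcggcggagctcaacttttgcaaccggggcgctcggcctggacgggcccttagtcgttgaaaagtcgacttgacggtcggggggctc
The full Gli site GACCACCCA was searched on both strands and was found in 0 of the 6 windows, and in 0.253% of 32851 windows of all genes. Its core CCACCC was in 5 of the 6, all but Ptch1, and in 31.5% of all windows. The pair of cores in the Foxf2 window overlap by a letter. The longer ETS site CCGGAAG was in 0 of the 6 and in 8.86% of all windows, and its core GGAAG was in 3 of the 6 (Ptch1, Foxf2 and Gli3) and in 71.4% of all windows. Hhip, with the lowest difference of the 10, held 1 Gli core and 0 ETS cores in this window, Ptch1 held 0 and 3, and Foxf2 held 2 and 2. Among the genes that differed less, Smo held 1 and 0, Gli2 held 2 and 0, and Gli3 held 1 and 3. The letters describe these windows only and do not mark a bound site.

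Shh, the ligand, was read at 9.11 in the knockout pool and 9.52 in the wild type pool. The difference of -0.41 (1.33-fold) was the 42nd lowest of the 11045 measured genes, and 11 of the 5636 at least as bright went lower. The listed markers of the epithelium, the layer that makes Shh, went the other way. All 8 of 8 listed epithelial genes were measured and higher in the knockout pool, with differences between 0.077 and 0.47 and a median of 0.11. Their mean level was 10.81 in the knockout pool and 10.63 in the wild type pool. The keratin genes Krt18 and Krt8 were the furthest, at 0.47 and 0.33. Not all epithelial genes were higher. The surfactant gene Sftpc, outside this list and named after its value was seen, had a lower difference than Hhip. Relative to the median of the 8 listed markers, Shh stood at -0.52. Whether these markers follow the cells that make Shh was not tested. In such bulk tissue, fewer cells of a type and less RNA per cell cannot be told apart.

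The other ligand genes stood near or below the limit for measured genes, where a lower value like that of Shh is hard to read. Ihh, a related ligand best known from cartilage and gut, was read at 7.65 in the knockout pool and 7.64 in the wild type pool, and Dhh, known from testis and nerve sheaths, was below the limit at 6.59 in both pools. Hhat, which attaches the lipid that Hedgehog ligands need, and Disp1, which helps release them from the cell, were equal on both arrays. Among the Scube genes, whose products help free the ligand, Scube2 was read at 8.11 in the knockout pool and 7.89 in the wild type pool, a difference of 0.22. Of 7 measured genes of ligand production and release, 4 were higher, 1 lower and 2 equal, and Shh was the lower one. After equal-median scaling 6 were higher and 1 lower, so the signs of the small differences carry no direction.

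Ptch1, the receptor and at the same time a Gli target, was read at 11.58 in the knockout pool and 12.05 in the wild type pool, a difference of -0.47 (1.38-fold), the 33rd lowest of all measured genes. Of the 437 measured genes at least as bright as Ptch1 by the mean of both arrays, itself included, 0 had a lower difference. Hhip, which captures Hedgehog ligands at the cell surface, was read at 10.05 in the knockout pool and 10.57 in the wild type pool. Its difference of -0.52 (1.43-fold) was the lowest of the 10 and the 27th lowest of all measured genes, and 0 of the 2570 measured genes at least as bright went lower. Brightness set the edge of that count, since 3 genes up to 0.5 dimmer than Hhip did go lower (Cym, Hsd3b6 and Sftpc), while 0 did so for Ptch1. Boc, a co-receptor that binds the ligand together with Ptch1, was the exception. It was read at 10.74 in the knockout pool and 10.61 in the wild type pool, a difference of 0.13 (1.09-fold), and 22 of the 1787 measured genes at least as bright had a higher one.

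The remaining receptor components lay closer to 0 than Ptch1 and Hhip. Gas1, a second co-receptor, differed by -0.084 (9.38 in the knockout pool and 9.46 in the wild type pool). Gpc3, a glypican that limits Hedgehog signalling, differed by -0.056, and its relative Gpc6 by -0.21 (10.95 in the knockout pool and 11.16 in the wild type pool). Cdon, the closest relative of Boc, and Lrp2, an endocytic receptor that takes up Shh, were not measured. Of 7 measured receptors and co-receptors, 6 were lower and 1 was higher, with a median of -0.084. Gas1, Gpc3, Gpc6, Cdon, Lrp2 and the other ligand genes above were named after their values were seen.

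Smo and the Gli factors, which carry the signal inside the cell, differed little. Smo was read at 11.59 in the knockout pool and 11.67 in the wild type pool, a difference of -0.078. Gli2, the main activator, was read at 9.82 in the knockout pool and 9.85 in the wild type pool, and Gli3, which mostly acts as a repressor, at 10.87 in the knockout pool and 10.90 in the wild type pool. Their differences of -0.030 and -0.026 lay well inside the central 95% of measured genes, which ran from -0.22 to 0.20. For the 6596 measured genes with a mean level between 9 and 13, where all 10 lie, it ran from -0.20 to 0.13. Boc, at 0.13, lay at the upper end of the latter. Gli1, an activator that is itself switched on by the pathway, was read at 9.39 in the knockout pool and 9.53 in the wild type pool. Its difference of -0.14 lay inside both ranges and was the 822nd lowest of all measured genes. Under 3 other scalings of the arrays it was between -0.12 and -0.11, short of 1.1-fold. Gli1 thus differed less than Ptch1 and Hhip, which are known as targets of the same factors. Whether those gaps exceed the error of an array was not tested.

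The genes that act between Smo and the Gli factors also stood close to 0. Of 16 measured signal transduction genes, the Gli genes included, 10 were lower, 0 higher and 6 equal, with a median of -0.022 and a lowest value of -0.14. Gpr161, a ciliary receptor that restrains the pathway, differed by -0.093 (8.61 in the knockout pool and 8.70 in the wild type pool), and Sufu, which holds Gli proteins in check and was named after its value was seen, by -0.055. The median of this list was 0.0018 after quantile scaling, so its sign carries no direction. Of 9 measured genes of the primary cilium, the organelle in which mammalian Hedgehog signalling takes place, 5 were lower, 2 higher and 2 equal. The motor gene Kif3a differed by -0.16 and the transport gene Ift88 by -0.10, and the median was -0.019.

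**Figure D2:**
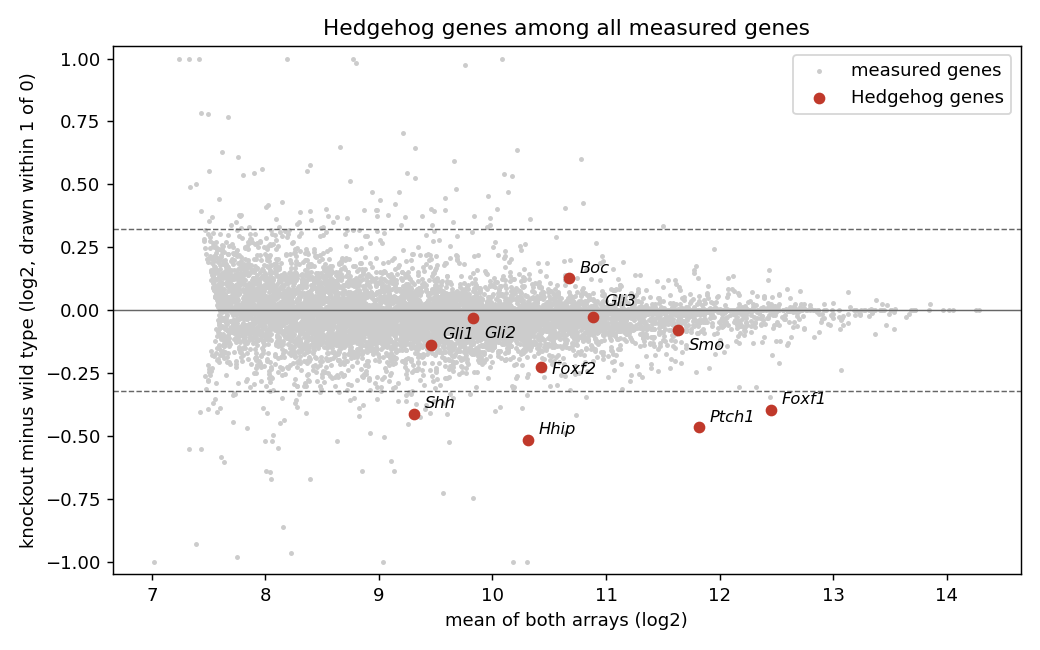
Knockout minus wild type difference (log2, vertical axis, values beyond 1 in size drawn at 1) against the mean of both arrays (log2, horizontal axis) for 11045 measured genes in grey and the 10 Hedgehog genes in red, with dashed lines at 0.32 in either direction. Shh, Ptch1, Hhip and Foxf1 lie below the lower dashed line, and the Gli genes and Smo lie inside the grey cloud. Ptch1, Hhip and Foxf1 also lie below all grey points at least as bright as themselves.

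Foxf1 and Foxf2, the mesenchymal forkhead genes, were both lower. Foxf1 was read by 2 probe sets, at 12.26 and 11.78 in the knockout pool and at 12.65 and 12.13 in the wild type pool. Their differences were -0.40 and -0.35, and the first was the 49th lowest of all measured genes. Of the 167 measured genes at least as bright as its brighter probe set, 0 had a lower difference. Foxf2 was read at 10.31 in the knockout pool and 10.54 in the wild type pool, a difference of -0.23 (1.17-fold), with 33 of 2282 genes at least as bright going lower. Foxl1, another forkhead target gene of the gut and lung mesenchyme, named after its values were seen, was not measured, with dim values of 6.76 in the knockout pool and 7.16 in the wild type pool.

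Among general Gli targets outside the list of 10, the cell cycle genes Ccnd1 and Ccnd2 and the transcription factor gene Mycn went the other way. Ccnd1 was read at 12.13 in the knockout pool and 12.01 in the wild type pool, a difference of 0.13. Ccnd2 and Mycn differed by 0.085 and 0.093. Bcl2, an inhibitor of cell death, differed by -0.12, and Rab34, a gene of cilium formation, by -0.026. These 5 genes were named after their values were seen. Of 10 measured targets, Ptch1, Hhip, Gli1, Foxf1 and Foxf2 included, 7 were lower and 3 higher (6 and 4 after quantile scaling).

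Over the wider pathway lists without the 10 genes, 36 genes were measured. Of these 9 were higher, 17 lower and 10 equal, their median was 0, and they ran between -0.21 and 0.22, so 0 reached the limit of 0.32 in either direction. Of all measured genes, 47% were lower and 25.7% higher as deposited, so these 36 genes lay near those shares. That limit was passed by 0.797% and 0.815% of all measured genes, and 36 genes are too few to compare with this. The 4 measured pathway genes past the limit were among the 10, a list chosen with earlier results of these data known. That split is therefore no separate finding. Foxl1, at -0.40, was left out as not measured.

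Genes of embryonic lung mesenchyme known to respond to Shh were read beside them. Fgf10, which drives bud outgrowth and is held down by Shh, was read at 10.24 in the knockout pool and 9.84 in the wild type pool, a difference of 0.40. Myocd, a coactivator of smooth muscle genes, was read at 10.06 in the knockout pool and 10.45 in the wild type pool, a difference of -0.39. Wnt2, a ligand of lung mesenchyme, was read at 10.04 in the knockout pool and 10.35 in the wild type pool, a difference of -0.31. Of the contractile genes, Tagln differed by -0.19 and Acta2 by -0.029. The T-box genes Tbx2 and Tbx3 differed by -0.072 and -0.068, and Bmp4, a growth factor of bud tips and nearby mesenchyme, was equal on both arrays. Over the 8 genes 6 were lower, 1 higher and 1 equal, with a median of -0.070. Fgf10 and Myocd passed the limit of 0.32, in opposite directions.

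**Figure D3:**
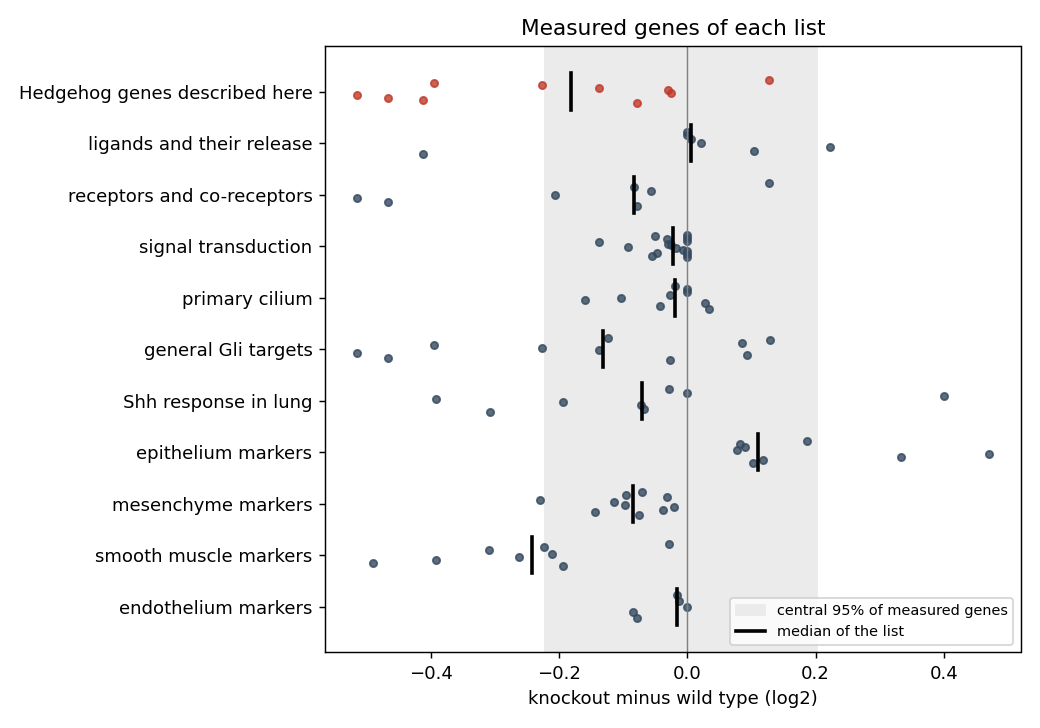
Knockout minus wild type difference (log2, horizontal axis) of every measured gene of each list, 1 point per gene, with the median of each list as a black bar and the central 95% of measured genes as a grey band from -0.22 to 0.20. The lists of receptors and of general Gli targets share Ptch1 and Hhip with the 10 Hedgehog genes in the top row, epithelial markers lie right of 0, and mesenchyme and smooth muscle markers lie left of it.

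Markers of the receiving layers were lower in the knockout pool as well. All 10 measured mesenchyme markers, of 11 listed, were lower, with differences between -0.23 (Meox2) and -0.021 and a median of -0.085, and Tcf21 differed by -0.14. Their mean level was 11.26 in the knockout pool and 11.35 in the wild type pool. All 8 smooth muscle markers, among which Acta2, Tagln and Myocd also stand in the Shh response list, were lower, with a median of -0.24 and Synpo2 at -0.49. Their mean level was 10.24 in the knockout pool and 10.51 in the wild type pool. Relative to the mesenchyme median, Hhip stood at -0.43, Ptch1 at -0.38, Foxf1 at -0.31 and Foxf2 at -0.14. Gli1 stood at -0.053, Smo at 0.0074, Gli2 at 0.055, Gli3 at 0.060 and Boc at 0.21. Hhip, Ptch1 and Foxf1 were therefore further from 0 than each of the 10 mesenchyme markers, and Foxf2, Gli1, Smo, Gli2 and Gli3 lay within the range of those markers. Against smooth muscle the gap was smaller. Synpo2 lay below Ptch1 and above Hhip, and Myocd and Foxf1 differed by -0.39 and -0.40. Foxf2, with a difference of -0.23, lay above the smooth muscle median. The part of tissue makeup in the lower values was not tested.

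Endothelial markers moved less, and the remaining cell types were thinly covered. Of 5 endothelial markers 4 were lower and 1 equal, with a median of -0.016 and Pecam1 and Tek at -0.084 and -0.079. After equal-median scaling 3 were higher and 2 lower, so their direction depended on the scaling. All 3 measured erythroid genes were lower (2 after quantile scaling), with a median of -0.25. Among them Slc4a1 and Hba-x differed by -0.26 and -0.25, and Alas2, named after its value was seen, by -0.018. The leukocyte gene Csf1r differed by -0.15. The mesothelial genes Upk3b and Wt1 differed by -0.086 and 0. Of the neural markers 0 were measured.

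The 10 genes lie on 7 chromosomes, and their differences were set beside those of up to 4 genes on each side that the array named by 1 symbol, in RefSeq gene order of the assembly GRCm38.p6. Around Shh, Ptch1, Hhip and Foxf1, 18 neighbours were measured, and the largest difference among them was 0.11 in size. The neighbours named here were picked after their values were seen. Lmbr1, which holds a distant limb enhancer of Shh in an intron, was equal on both arrays. Next to Foxf1, the neighbours Mthfsd and Foxc2 differed by 0.044 and 0, and Foxl1, a few genes on, was the dim gene given above. Foxf2 had a measured neighbour of similar size, 1700018A04Rik, at -0.22 (7.77 in the knockout pool and 7.98 in the wild type pool), while the forkhead genes Foxq1 and Foxc1 on either side of it were not measured. Boc lies on chromosome 16, as does Etv5, and its measured neighbours reached 0.10 in size. The part of sequence differences linked to Etv5 in the value of Boc was not tested. Gli2 and Gli3 each had 4 measured neighbours with a difference of at least their own size.

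**Figure D4:**
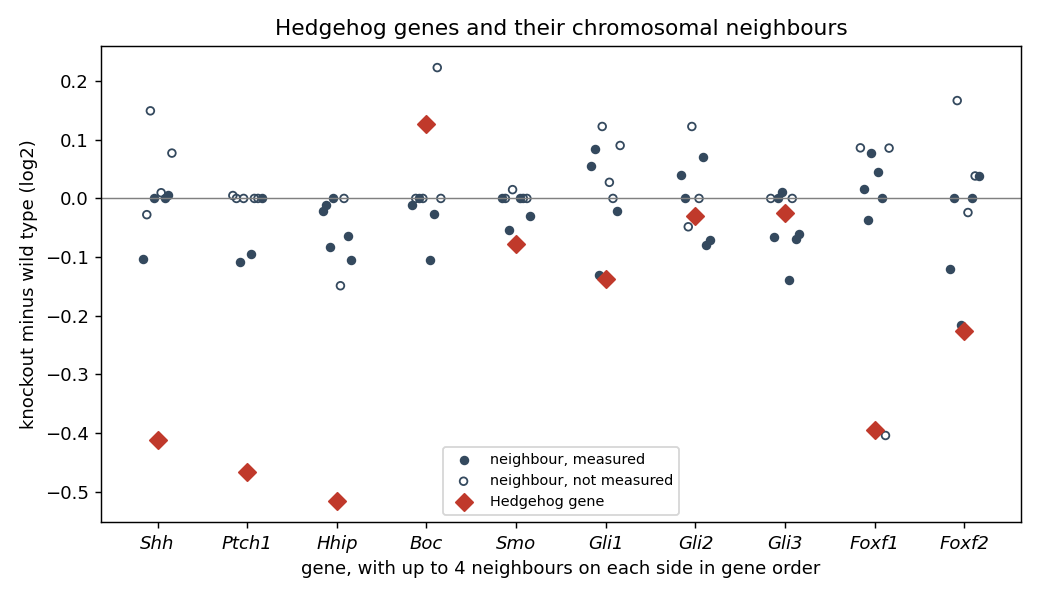
Knockout minus wild type difference (log2, vertical axis) of each Hedgehog gene as a red diamond and of up to 4 neighbours on each side as circles, filled where measured and empty where not, with genes ordered by role along the horizontal axis. Shh, Ptch1 and Hhip stand apart from all their neighbours, Foxf1 stands beside the unmeasured Foxl1, and the diamonds of Gli1, Gli2, Gli3 and Smo lie among the circles or close to them.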

How the data were processed

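Lung RNA from a column kit carried a biotin label, per the labels' protocols, and was read on Affymetrix arrays after equal pooling of 3 samples per genotype, per the series' design text. Each array has 1 column in the authors' deposited table, taken here as log2 values from their range. The summary method, the normalization and the log base are not given in the sources used here.

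Names came from the platform annotation, in which 21789 probe sets had a single symbol. Values were used as deposited. Genes were counted from a log2 difference of 0.32. Named genes were the 10 Hedgehog genes, those of each wider list past that limit or else its 2 largest, all 8 lung response genes and the 2 largest of each marker list; others are marked in the text. The Hedgehog genes, lists and limits were chosen with earlier results of these data known. Alternatives were equal medians, quantile and loess scaling (span 0.3), the mean over probe sets, no filter, a 75th percentile filter, a floor at the 25th percentile and other folds. With 1 array per pool there was no test, no SD and no p-value, and array number limits the precision. The steps were tested on simulated data. Python 3.11.15, numpy 2.4.6, pandas 2.3.3, statsmodels 0.14.6 and matplotlib 3.10.9 were used.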

Additional observations from a re-analysis of the deposited data

How the results depend on the processing

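The count of 4 Hedgehog genes lower by at least 0.32 was 4 under each of equal medians, quantile and loess scaling, the mean over probe sets, no filter, the 75th percentile filter and the floor, and it was 6 at 1.1-fold, 0 at 1.5-fold and 0 at 2-fold. The last counts follow from the limit itself, since the largest of the differences is 1.43-fold. The median of the 10 lay between -0.18 and -0.16 under these settings. Each of the 10 kept its sign in all 7 settings, although Gli2 came to -0.0003 and Gli3 to -0.005 under quantile scaling, so their signs carry no direction. Shh ran between -0.41 and -0.39, Ptch1 between -0.47 and -0.45, Hhip between -0.52 and -0.49 and Foxf1 between -0.40 and -0.37. Leaving out X and Y genes, chosen after seeing the data, gave 82 lower genes of 10693 in place of 88 of 11045. Without a filter 137 of 19938 genes were lower by 0.32 or more, and with the 75th percentile filter 37 of 5725. For 777 genes with 2 probe sets, the gap between their differences had a median of 0.045 and a 90th percentile of 0.20. No paired analysis was possible because each pool was read on 1 array, so no array could be left out either.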
